A study of Mus musculus with 6 samples.

Results

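The p53 pathway and the Gadd45 family were examined in mouse embryonic stem (ES) cells with and without extra Prdm14, through 10 listed genes, namely Gadd45a, Gadd45b, Gadd45g, Trp53, Cdkn1a, Mdm2, Ccng1, Bax, Phlda3 and Trp53inp1. All probes that the platform annotation used here assigns to these symbols were taken. This gave 17 probes of 8 genes, out of 13778 named probes of 9166 genes. The annotation listed 15944 of the 45281 array probes, so the array may hold further probes of these genes. No listed probe was named Trp53 or Bax, and neither gene was analysed here. The cells were of a 129P2 background and grown in serum. Overexpressing cells carried Prdm14 stably in a line with a Rex1-GFPd2 reporter, and control cells carried a control vector, with 3 arrays of total RNA per group. The promoter driving Prdm14, the parent of the control cells and the number of lines behind the arrays are not given in the sources used here. Arrays of a group came from successive passages, so p-values rest on passage-to-passage spread. Unequal cells behind the vectors and an effect of Prdm14 cannot be told apart.

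p53, encoded by Trp53, is a transcription factor that is held low by the ubiquitin ligase MDM2 and accumulates after DNA damage and other stress. It then raises genes that stop the cell cycle, such as Cdkn1a, genes that promote cell death, such as Bax, and Mdm2 itself, which closes a feedback loop. The GADD45 proteins are small stress-induced regulators that bind the kinase MEKK4, PCNA and the CDK1-cyclin B complex, and they have been linked to active DNA demethylation. Gadd45a is a direct p53 target, while Gadd45b and Gadd45g are mainly known for responses to cytokines, TGF-beta and differentiation cues. Mouse ES cells express p53 and lack a firm G1 arrest.

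Prdm14 was higher on every overexpression array, with a log2 difference of 3.86 ± 0.12 (SE, 3 arrays each; limma adjusted p = 1.73e-06) for the brighter of its probes. Between 14078 and 14769 of 45281 probes were above background on an array, meaning a detection p under 0.01 against the negative control beads, and the 14604 probes that were so on 3 or more of the 6 arrays were tested. Signals were brighter throughout on the overexpression arrays, where 91.7% of tested probes had the higher mean signal, so raw signals are given below beside normalized log2 values, and differences refer to the latter. Of 8 ES cell markers all were tested and none passed the test, with summed signals of 75074 to 85232 on overexpression and 63975 to 73170 on control arrays. Of 6 mesoderm markers none was named by a listed probe. Markers without a listed probe may still have a probe on the array. For the remaining cell types only 2 of 8 fibroblast, 2 of 8 primitive endoderm, 2 of 8 trophectoderm and 3 of 6 neural markers were tested. Their summed signals on overexpression against control arrays were 377 to 453 and 432 to 635 for fibroblast, 657 to 775 and 429 to 617 for primitive endoderm, 298 to 409 and 278 to 339 for trophectoderm, and 621 to 901 and 604 to 754 for neural markers. All these sums are of raw signals. After normalization the log2 differences ran from -0.12 to 0.34 for the ES cell markers. For the 2 primitive endoderm markers they were -0.19 and 0.38, with overlapping groups. Of the markers of other cell types 2 passed the test, the smooth muscle actin gene Acta2 and the neuronal gene Map2. Acta2 was at least 2.93-fold lower in overexpressing cells, where it was above background on none of the 3 arrays. It entered the test only through the control arrays, so the filter favoured a call as lower. Map2 was lower by a log2 difference of -0.79. The other neural markers tested, Nes and Ncam1, were not called, at 0.51 and 0.09. The part of these markers in the results below was not tested. In bulk RNA, fewer cells that express a gene and less RNA per cell cannot be told apart.

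Gadd45g fell in Prdm14 overexpressing cells, by 2.67-fold on its brighter probe, and was the one member gene of the 8 tested that passed the threshold of adjusted p = 0.01. Over all 8529 tested genes 4.00% passed it, 2.50% as lower and 1.50% as higher. Of the 17 member probes 2 passed, both of Gadd45g, and over all tested probes 3.50% did, 2.10% as lower and 1.40% as higher. The dimmer of the 2 Gadd45g probes entered the test only through the control arrays. Gadd45g encodes a regulator of growth arrest and of p38 and JNK signalling. Its brighter probe (ILMN_2903945) gave signals of 655, 451 and 444 with Prdm14 overexpression and of 1047, 1049 and 1021 with the control vector. All 3 overexpression signals were below all 3 control signals, which held for 1.62% of all tested probes. Overexpression array 1 was the highest of its group. On the normalized scale the values were 8.83, 8.69 and 8.50 against 10.24, 10.12 and 9.91, a log2 difference of -1.42 ± 0.13 (SE, 3 arrays each; limma adjusted p = 0.000401). The level in overexpressing cells was thus 0.374 of that in control cells (95% interval 0.307 to 0.456), the 49th lowest difference among the tested genes.

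The second Gadd45g probe (ILMN_2744890) gave signals of 130, 107 and 109 with Prdm14 overexpression and of 227, 214 and 199 with the control vector. It was above background on the 3 control arrays and on none of the 3 overexpression arrays, where its detection p was 0.0374, 0.0395 and 0.0588. It thus entered the test only through the control arrays. The filter favoured a call as lower, and the call adds no separate support. Without the filter its limma adjusted p was 0.00425. The probe was not tested with a control array left out or when detection on all 6 arrays was required. Its transcript was at least 2.60-fold lower in overexpressing cells, taking the lowest detected value of an array as the floor where the probe was dimmer (limma adjusted p = 0.000170). This bound holds on the background-corrected scale. For this dim probe the size depended on the correction, with a log2 difference of -1.88 here, -1.20 without background correction and -0.65 in the authors' normalized values once matched to arrays, and a ratio of raw mean signals of 0.540. The brighter probe gave -1.31 and -1.15 in the same 2 settings.

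**Figure D1:**
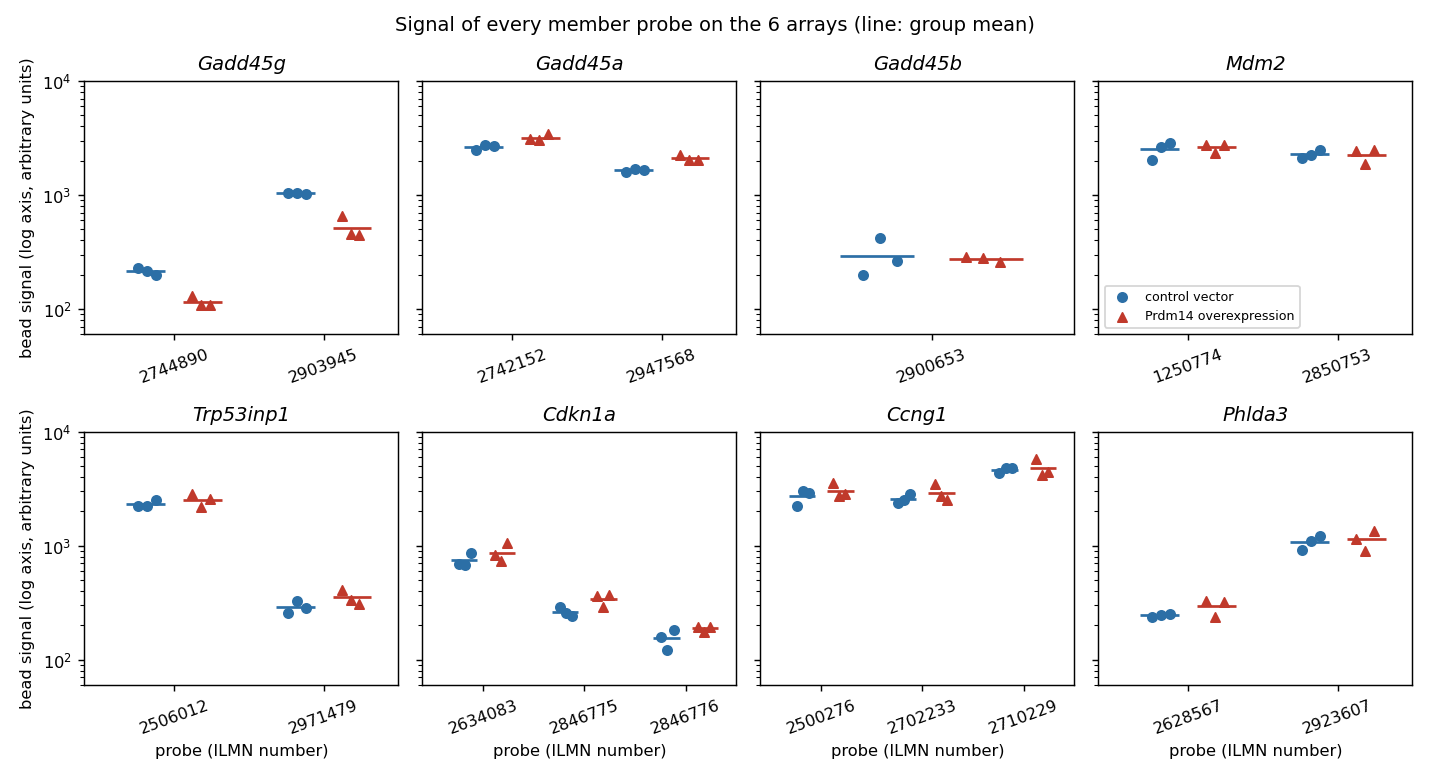
Bead signal (log axis, arbitrary units) of each of the 17 member probes, 1 point per array, for control (circles) and Prdm14 overexpression arrays (triangles), with lines at the group means. Only the Gadd45g probes have all 3 overexpression arrays below all 3 control arrays, at 444 to 655 against 1021 to 1049 for the brighter one, and only the Gadd45a probes have them all above. Of all tested probes 1.62% had raw signals apart as lower and 35.9% as higher.

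The other members of the family were not called. Gadd45a, the p53-dependent paralog, gave signals of 3103, 3038 and 3408 with Prdm14 overexpression and of 2476, 2729 and 2708 with the control vector on its brighter probe (ILMN_2742152). The raw signals of the groups did not overlap, but 35.9% of all tested probes had raw signals apart in this direction. After normalization the values were 11.26, 11.58 and 11.67 against 11.50, 11.50 and 11.36 and did overlap, with a log2 difference of 0.05 ± 0.13 (SE, 3 arrays each; adjusted p = 0.865, 95% interval -0.23 to 0.34). The other probe (ILMN_2947568) gave 2226, 2033 and 2040 against 1586, 1680 and 1670, with a difference of 0.12 ± 0.11 (adjusted p = 0.564).

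Gadd45b, a target of TGF-beta and NF-kappaB signalling, had a single probe (ILMN_2900653), with signals of 287, 282 and 259 with Prdm14 overexpression and of 200, 420 and 263 with the control vector. In raw signal control array 2 stood above the other 5 arrays, and the controls lay on both sides of the overexpression arrays. After normalization the values were 7.38, 7.88 and 7.54 against 7.49, 8.75 and 7.73. Control array 2 was again the highest, and overexpression array 1 was the lowest. The log2 difference was -0.39 ± 0.29 (SE, 3 arrays each; adjusted p = 0.478), the widest error among the members, with a 95% interval from -1.06 to 0.27 that includes a change of 2-fold downwards. Without control array 2 the difference was -0.01.

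The responses of the paralogs were set against each other directly, since a call for one and none for another does not show that they differ. Levels of different probes are not comparable, so only the shift of their log2 difference between the groups has meaning. Gadd45g minus Gadd45a was -2.43, -2.89 and -3.18 on the overexpression arrays and -1.26, -1.38 and -1.45 on the control arrays. The groups did not overlap, and the difference shifted by -1.47, with an exact permutation p of 0.10 (two-sided, n = 3 per group), the smallest that 3 against 3 arrays can give. Gadd45g minus Gadd45b shifted by -1.03 (exact permutation p = 0.20, two-sided), from 2.75, 1.37 and 2.18 on control to 1.45, 0.81 and 0.96 on overexpression arrays. These groups overlapped through control array 2. Gadd45a minus Gadd45b, added after the values were seen, shifted by 0.44 (exact permutation p = 0.40, two-sided). Adjusted over the 3 pairs, the p-values were 0.30, 0.30 and 0.40. These tests leave out the pairing of same-numbered arrays. Within the numbered pairs Gadd45g minus Gadd45a shifted by -1.17, -1.52 and -1.72 and Gadd45g minus Gadd45b by -1.30, -0.57 and -1.21, downwards in 3 of 3 pairs each. The exact sign-flip p, added after the values were seen, was 0.25 for both (two-sided), the smallest that 3 pairs can give.

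**Figure D2:**
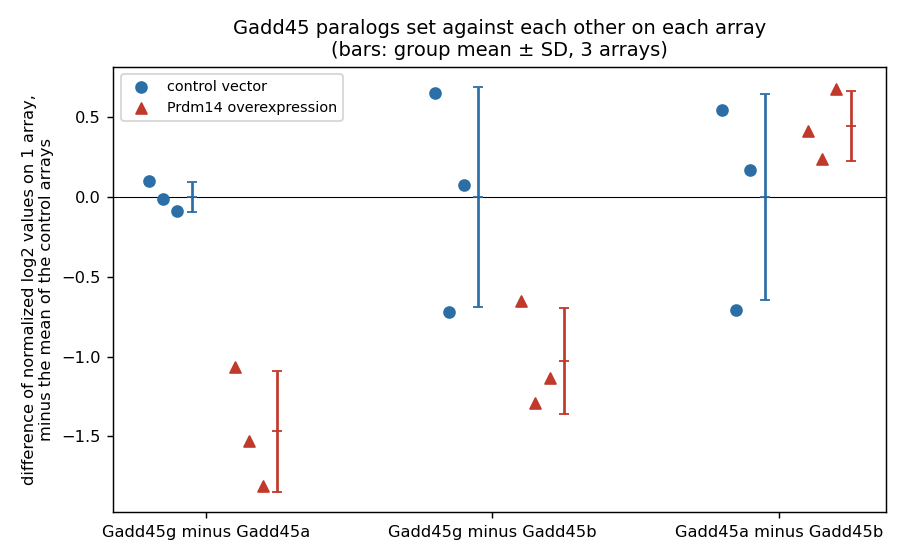
Difference of the normalized log2 values of 2 Gadd45 paralogs on each array (points), with the mean of the control arrays of that pair set to 0 and the mean ± SD of each group (bars, 3 arrays). Gadd45g moved against Gadd45a by -1.47 with no overlap of the groups, while the control arrays spread more widely in both pairs that hold Gadd45b.

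The promoters of the family are printed so that the start of the called gene can be read beside those of its paralogs. Sequences are those of RefSeq on build GRCm38.p6 and run from 250 bases before to 50 after a start site, at chr13:51846425-51846724 (plus strand) for Gadd45g, chr6:67037358-67037657 (minus strand) for Gadd45a and chr10:80929841-80930140 (plus strand) for Gadd45b. The upstream one of 2 Cdkn1a promoters, at chr17:29090729-29091028 (plus strand), is shown as that of a textbook p53 target. Capitals mark exact matches, on either strand, to the CCAAT box, the TATAAA box or the p53 half-site.
Gadd45g: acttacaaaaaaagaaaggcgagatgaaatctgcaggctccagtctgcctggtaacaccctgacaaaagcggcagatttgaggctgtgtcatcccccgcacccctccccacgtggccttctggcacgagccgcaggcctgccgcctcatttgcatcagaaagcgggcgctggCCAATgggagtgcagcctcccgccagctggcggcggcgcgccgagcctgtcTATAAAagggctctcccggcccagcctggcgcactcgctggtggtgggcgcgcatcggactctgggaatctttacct
Gadd45a: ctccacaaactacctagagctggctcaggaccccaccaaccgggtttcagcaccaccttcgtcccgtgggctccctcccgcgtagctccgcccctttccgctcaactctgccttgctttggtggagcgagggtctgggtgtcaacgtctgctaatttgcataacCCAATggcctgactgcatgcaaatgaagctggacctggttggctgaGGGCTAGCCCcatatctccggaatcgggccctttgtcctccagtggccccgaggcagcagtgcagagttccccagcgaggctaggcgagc
Gadd45b: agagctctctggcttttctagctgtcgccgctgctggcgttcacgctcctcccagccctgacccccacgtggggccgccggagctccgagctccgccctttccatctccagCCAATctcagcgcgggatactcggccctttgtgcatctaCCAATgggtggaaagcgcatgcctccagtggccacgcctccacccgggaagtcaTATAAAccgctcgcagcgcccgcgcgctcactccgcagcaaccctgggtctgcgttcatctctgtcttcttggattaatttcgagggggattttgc
Cdkn1a: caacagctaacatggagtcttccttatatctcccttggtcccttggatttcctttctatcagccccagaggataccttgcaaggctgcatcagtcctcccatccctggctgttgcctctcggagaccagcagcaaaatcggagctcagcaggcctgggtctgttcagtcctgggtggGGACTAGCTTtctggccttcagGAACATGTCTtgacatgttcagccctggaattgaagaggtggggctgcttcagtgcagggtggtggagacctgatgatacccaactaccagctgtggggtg

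The Gadd45g promoter held CCAAT at positions -78 to -74 from the start site and TATAAA at -27 to -22, and no exact p53 half-site. Gadd45b had CCAAT at 2 positions and TATAAA at -46 to -41, also without a half-site in this window. Gadd45a had CCAAT and no TATAAA, with 1 half-site at -40 to -31. The Cdkn1a window shown held 2 half-sites, GGACTAGCTT and GAACATGTCT, and the other Cdkn1a promoter held none. Over the 10 promoters of the listed genes that were given, of 9 genes, 6 held an exact half-site, those of Gadd45a, Trp53, Mdm2, Cdkn1a, Ccng1 and Bax. Among 32851 promoters of the same length 8.36% did, 13.6% held TATAAA and 37.4% the CCAAT box. The listed genes include known p53 targets, so these shares are no test of enrichment. The start of the cyclic AMP response element, TGACGT, was in none of the 10 and in 7.51% of all. The matches overlapped no match of another motif, and they are letters in a window of sequence, not measured binding.

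Of the members that regulate p53, neither Mdm2 nor Trp53inp1 was called. Mdm2, the ubiquitin ligase that p53 itself induces, gave signals of 2764, 2346 and 2773 with Prdm14 overexpression and of 2044, 2623 and 2875 with the control vector on its brighter probe (ILMN_1250774). The groups overlapped, and the log2 difference was -0.16 ± 0.12 (SE, 3 arrays each; adjusted p = 0.451, 95% interval -0.42 to 0.10). The other Mdm2 probe (ILMN_2850753) gave normalized values of 10.89, 10.87 and 11.20 against 11.27, 11.22 and 11.23. Here all 3 overexpression arrays were below the control arrays, by -0.26 ± 0.11 (adjusted p = 0.217, 95% interval -0.51 to 0.001), in a series where the groups were apart for 28.5% of tested probes. Trp53inp1, which encodes a nuclear protein that promotes p53 phosphorylation and is induced by p53, gave 2855, 2188 and 2545 against 2241, 2216 and 2536 (ILMN_2506012). These groups overlapped as well, with a log2 difference of -0.12 ± 0.10 (adjusted p = 0.529, 95% interval -0.33 to 0.10), and that of its dimmer probe (ILMN_2971479) was -0.02 ± 0.15 (adjusted p = 0.966).

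Cdkn1a, the p21 inhibitor of cyclin-dependent kinases through which p53 arrests the cell cycle, did not separate the groups. Its brightest probe (ILMN_2634083) gave signals of 826, 740 and 1045 with Prdm14 overexpression and of 687, 680 and 858 with the control vector. Overexpression array 3 was the highest of the 6 and arrays 1 and 2 lay inside the control range. After normalization the values were 9.21, 9.48 and 9.87 against 9.58, 9.48 and 9.65, a log2 difference of -0.05 ± 0.16 (SE, 3 arrays each; adjusted p = 0.896). The ratio was 0.965 with a 95% interval from 0.751 to 1.24. Its other probes (ILMN_2846775 and ILMN_2846776) gave differences of 0.08 ± 0.16 and 0.01 ± 0.18 (adjusted p = 0.830 and 0.981). The sign for Cdkn1a turned with the common-median scaling and when its probes were averaged, and no setting gave a call.

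Ccng1, which encodes the p53-induced cyclin G1, was bright on all arrays, with signals of 5748, 4178 and 4468 with Prdm14 overexpression and of 4303, 4819 and 4780 with the control vector (ILMN_2710229). The raw signals overlapped, whereas the normalized values of 12.18, 12.05 and 12.09 lay below those of the controls at 12.30, 12.31 and 12.19. The log2 difference was -0.15 ± 0.09 (SE, 3 arrays each; adjusted p = 0.369), and the other 2 probes (ILMN_2500276 and ILMN_2702233) gave -0.05 ± 0.10 and -0.06 ± 0.10 with overlapping groups. Phlda3, a pleckstrin homology domain gene whose product restrains AKT signalling downstream of p53, gave 1149, 906 and 1345 against 922, 1095 and 1227 (ILMN_2923607). In raw signal overexpression array 2 was the lowest and array 3 the highest of all 6. After normalization the values were 9.73, 9.79 and 10.26 against 10.03, 10.18 and 10.20, with array 1 the lowest. The log2 difference was -0.21 ± 0.15 (adjusted p = 0.446). Its dimmer probe (ILMN_2628567) differed by -0.06 ± 0.12 (adjusted p = 0.812).

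**Figure D3:**
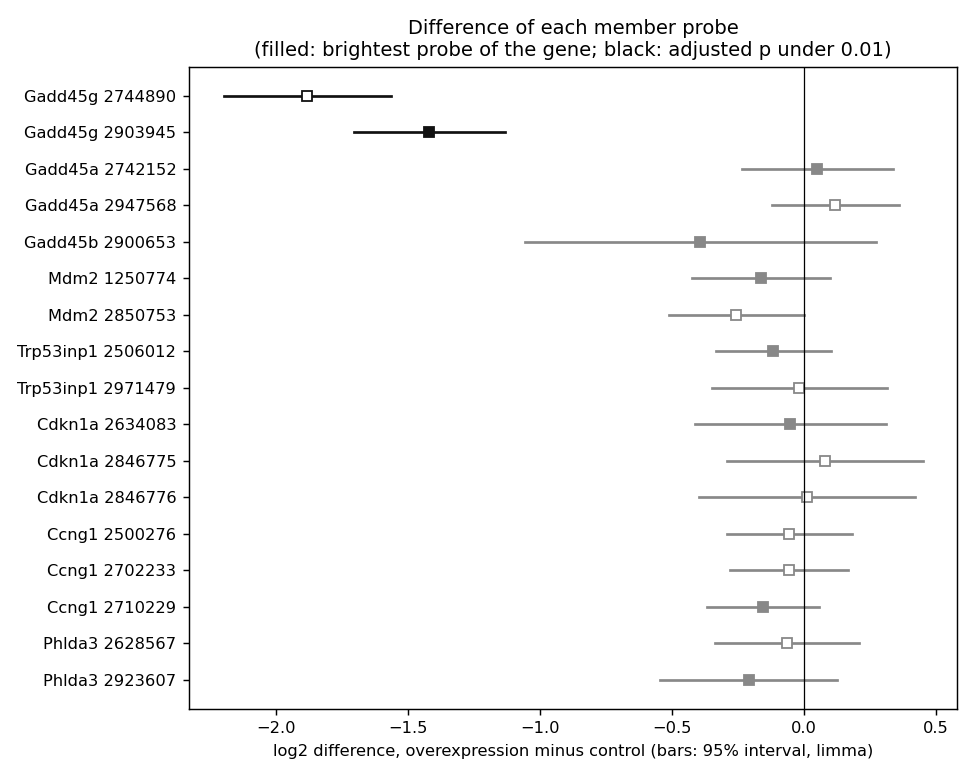
Log2 difference of each member probe, overexpression minus control, with its 95% interval from limma. The intervals of both Gadd45g probes lie below -1.13, while those of the other 15 probes include 0, the widest being that of Gadd45b from -1.06 to 0.27. The dimmer Gadd45g probe was above background on no overexpression array and entered the test only through the control arrays. Its interval rests on values below background and adds no separate support.

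Taking the brightest probe per gene, 7 of the 8 member genes were below the control mean and 1 above (6 and 2 with common-median scaling, which moved the median of all genes to 0.11), while 49.7% of all tested genes were above. The median difference was -0.16 over the members and -0.002 over all genes, and without regard to sign the medians were 0.16 and 0.14. At an unadjusted p under 0.05, 1 of the 8 genes passed, against 24.2% of all tested genes. The groups did not overlap for 2 of the 8 genes, Gadd45g and Ccng1, both lower in overexpressing cells, and for 29.9% of all genes, 15.3% as lower. Before normalization, 13 of the 17 member probes had the higher mean signal in overexpressing cells, against 91.7% of all tested probes.

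The spread within the groups differed from probe to probe. For the brightest Cdkn1a probe the normalized values of the overexpression arrays had an SD of 0.33, against 0.09 in the controls, but for its other probes the controls spread more, with 0.17 against 0.31 (ILMN_2846775) and 0.20 against 0.35 (ILMN_2846776). The brighter Phlda3 probe had an SD of 0.29 with overexpression and 0.09 in the controls, and the dimmer one 0.19 and 0.10. Trp53inp1 (0.074 and 0.073) and Ccng1 (0.065 and 0.066) had nearly equal SDs on their brightest probes. Without overexpression array 3 the differences were -0.23 for Cdkn1a (adjusted p = 0.342) and -0.38 for Phlda3 (adjusted p = 0.0881). Without array 1 that of Cdkn1a was 0.11.

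The wider pathway was followed through 6 lists, of which 91 further genes were tested and 3 passed (3.30%), against 4.00% of all tested genes. Of 36 other genes known to be induced by p53, 1 was higher and 1 lower, with a median difference of -0.09. The higher one was Pmaip1, which encodes the pro-apoptotic BH3 protein NOXA. Its signals were 483, 341 and 484 with Prdm14 overexpression and 178, 192 and 232 with the control vector, all 3 above the controls, a log2 difference of 1.00 ± 0.13 (SE, 3 arrays each; limma adjusted p = 0.00261). The lower one was Dcxr, a carbonyl reductase gene, with 387, 353 and 384 against 431, 496 and 482, all 3 below the controls, and a difference of -0.71 ± 0.12 (adjusted p = 0.00946). Of all tested probes 35.9% had raw signals apart as higher and 1.62% as lower. At an unadjusted p under 0.05, 11 of the 36 passed, where 24.2% of all tested genes did. The sestrin gene Sesn1, named after its value was seen, differed by 0.49 ± 0.12 (adjusted p = 0.0365), the p53-induced BH3 gene Bbc3 (PUMA) by -0.11 ± 0.12 and the phosphatase gene Ppm1d by -0.02 ± 0.13, both also named afterwards.

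Neither call held for every array left out. Pmaip1 was not called without overexpression array 1 (adjusted p = 0.0105) or without control array 1, 2 or 3 (0.0177, 0.0101 and 0.0102), and its difference was 0.57 in the authors' normalized values once matched to arrays. Dropping any 1 of the 6 arrays ended the call of Dcxr (adjusted p between 0.0184 and 0.0442), as did common-median scaling (0.0147). Without the detection filter neither gene was called (limma adjusted p = 0.0199 for Pmaip1 and 0.0401 for Dcxr).

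Among 6 paralogs of the members, 1 was lower. This was Phlda1, a relative of Phlda3 that responds to growth factor signalling, with signals of 287, 182 and 214 with Prdm14 overexpression and of 250, 256 and 339 with the control vector. The raw signals overlapped, and after normalization the overexpression arrays were below the controls by -0.80 ± 0.12 (SE, 3 arrays each; limma adjusted p = 0.00519). At an unadjusted p under 0.05, 3 of the 6 paralogs passed, against 24.2% of all tested genes. The call of Phlda1 was lost when overexpression array 2 or 3, or a single control array, was dropped (adjusted p between 0.0150 and 0.0234). It was also lost with common-median scaling (0.0304) and without the detection filter (0.0273). The difference of Phlda1 was -0.41 in the authors' matched values. Cdkn1c, the p57 relative of Cdkn1a, differed by -0.75 ± 0.16 (adjusted p = 0.0201). When arrays were blocked by replicate number, 5 genes of the lists passed, and of all 8529 tested genes 442 did. The 5 list genes were the same 3 together with Cdkn1c (adjusted p = 0.00461) and the autophagy gene Dram1 (0.00827). Dram1 was above background on none of the control arrays and at least 1.19-fold higher with overexpression. It entered the test only through the overexpression arrays, so the filter favoured a call as higher.

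In the other lists no gene passed in the main processing. Of 19 p53 regulators (median difference -0.02), the largest differences were 0.51 ± 0.10 for Wrap53, a telomerase and Cajal body factor gene that neighbours Trp53 (adjusted p = 0.0138), and 0.46 ± 0.09 for the kinase gene Hipk2, whose product phosphorylates p53 (0.0190). Of 11 partners of the GADD45 proteins (median -0.03), they were -0.63 ± 0.11 for the JNK1 gene Mapk8 (adjusted p = 0.0110) and -0.39 ± 0.10 for the thymine DNA glycosylase gene Tdg (0.0390). Of 9 Bcl2 family genes (median -0.14), they were -0.40 ± 0.15 for both the anti-apoptotic Bcl2l1 and the pro-apoptotic Bik (adjusted p = 0.140 and 0.139). Of 10 genes of the G1 kinases, cyclins and the RB and E2F proteins downstream (median 0.02), they were -0.34 ± 0.11 for cyclin D1 (Ccnd1, adjusted p = 0.0997) and 0.31 ± 0.09 for cyclin D3 (Ccnd3, 0.0673). At an unadjusted p under 0.05, 5 regulators, 2 GADD45 partners, 2 Bcl2 family genes and 2 of the G1 list passed. Of all tested genes 24.2% did. Some of these genes were called under other settings: Mapk8 in 7 of 17 alternatives, Wrap53 in 5, Ccnd3 in 2 and Hipk2 in 1, the common-median scaling (adjusted p = 0.00853), with which Wrap53 also passed (0.00751). With the probes of a gene averaged, the differences were smaller for Mapk8 (-0.35), Bcl2l1 (-0.18) and Hipk2 (0.29).

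**Figure D4:**
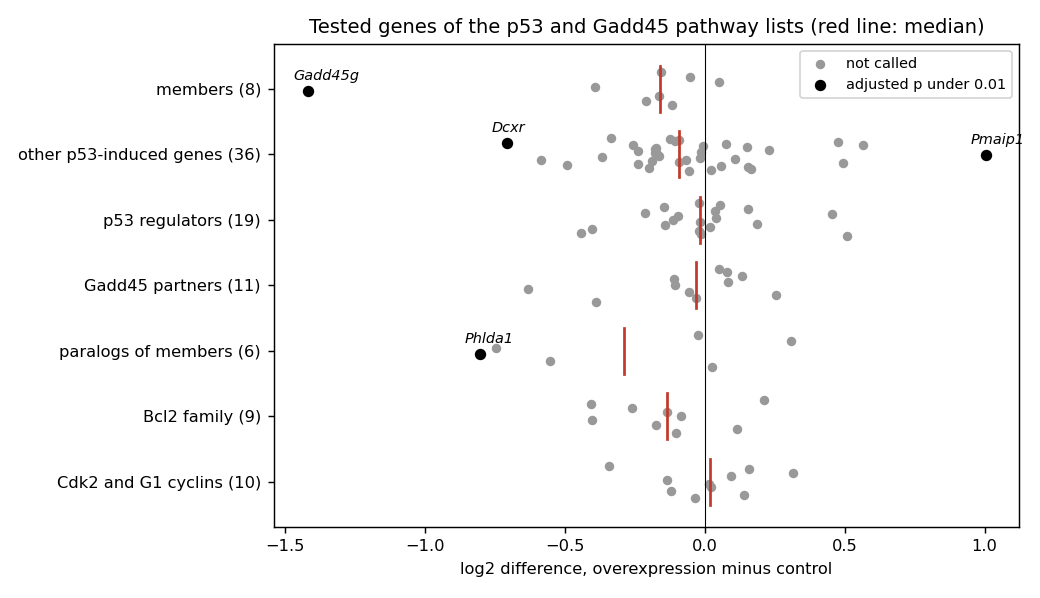
Log2 difference, overexpression minus control, of each tested gene (points) of the member list and the 6 pathway lists, with the number tested in brackets and the list's median as a red line. The 4 genes past an adjusted p of 0.01 (black) are Gadd45g at -1.42, Phlda1 at -0.80, Dcxr at -0.71 and Pmaip1 at 1.00.

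The genes whose values followed Gadd45g most closely over the 6 arrays were Tdrd12, a germline gene of the piRNA pathway (Pearson r = 0.997), the acyl-CoA synthetase gene Acsl5 (0.997) and the adhesion gene Nectin3 (0.996). Their log2 differences were -0.51 (adjusted p = 0.0103), -1.31 (0.000257) and -0.56 (0.00667). Nectin3 was not called when any 1 of the 6 arrays was left out (adjusted p between 0.0211 and 0.0396). Its call was also lost with common-median scaling (0.0322) and without the detection filter (0.0110). With its probes averaged the difference was -0.39, again without a call (0.0264). With the group means taken out, the closest were Mlf1 (r = 0.998), Ints8 (0.996) and Mad1l1 (0.992), none of them called. These are the highest among the correlations of all tested genes, over 6 arrays that share their normalization, given as a description.

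Gadd45g stayed lower under each of the 17 alternatives that kept arrays under their own group, with an adjusted p of at most 0.00638. The log2 differences ran from -1.65, with its probes averaged, to -1.15. That average includes the dimmer probe, which was above background on no overexpression array. For the brighter probe alone the lowest difference was -1.51, with 1 array left out. For the other 7 genes no alternative gave a call, and the smallest adjusted p among them was 0.0881, for Phlda3 without overexpression array 3.

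**Figure D5:**
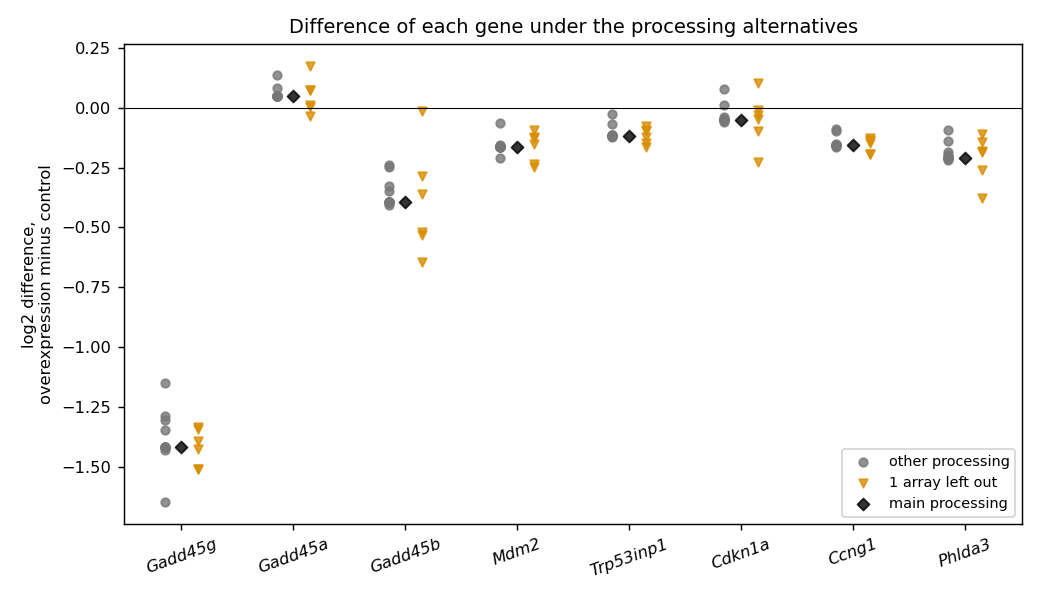
Log2 difference, overexpression minus control, of each member gene under the main processing (diamonds), other processing (circles) and with 1 array left out (triangles). Values are of the brightest probe, except in the setting that averaged the probes of a gene. Gadd45g lies between -1.65 (its probes averaged, with the dimmer one above background on no overexpression array) and -1.15 throughout. Gadd45b moves from -0.64 to -0.01 with the array left out.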

How the data were processed

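Total RNA of 3 Prdm14 overexpression and 3 control samples was hybridised to Illumina Mouse WG-6 BeadChips. The authors deposited the bead signal intensity of each probe, not background-corrected or normalized, with a detection p-value against the negative control beads. They also deposited normalized log2 values made with lumi per the submitters' notes (version and transformation not given in the sources used here), whose columns do not follow their sample names: each column was matched to the array it correlated with best (r = 0.941 to 0.967), and 4 of 6 were not the array named. These were an alternative only.

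Signals were processed with neqc in limma 3.58.1 (R 4.3.3; offset 16, quantile normalization). Probes detected (p under 0.01) on 3 or more of the 6 arrays were fitted with lmFit and eBayes and adjusted by Benjamini-Hochberg over all tested probes, with the threshold of 0.01 from the study's methods. A gene was represented by its brightest tested probe. The fit was tested on simulated data in which the noise of the arrays was independent, so that test does not cover the pairing given next. Same-numbered arrays of the 2 groups deviated together (r = 0.121, 0.390 and 0.324), as the check of the replicate block. The number of arrays limits the precision. Symbols came from the platform annotation and were updated through RefSeq (GRCm38.p6), which also gave the promoters. Of 15944 annotated probes 13778 had 1 symbol and 6 had several.

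The member genes and pathway lists were chosen with earlier results of these data known. By rule, the text names all members, Prdm14, the genes of each list past the threshold or else the 2 with the largest difference, and the 3 genes most like a called member. Acta2, Map2, Nes, Ncam1, Cdkn1c and Dram1 were named after their values were seen. Alternatives changed the background correction, offset, scaling, detection filter, variance model, block, probe choice, table and the arrays included.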

Additional observations from a re-analysis of the deposited data

How the results depend on the processing

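Gadd45g kept its direction and call under all alternatives except the deposited normalized values under their deposited sample names, where arrays of the groups are mixed. There it differed by -0.21 (adjusted p = 0.998) and 0 member genes passed, as did 0 probes, 0 genes and 0 genes of the pathway lists. Gadd45a was then -0.067 and the shift of Gadd45g minus Gadd45b 0.040. The signs of uncalled genes turned for Cdkn1a, at 0.079 with common-median scaling and 0.014 with probes averaged. With 1 array left out, Cdkn1a ranged from -0.23 to 0.11 and Gadd45a from -0.035 to 0.18. The paired analysis, with the replicate number as a block, called 1 member gene (Gadd45g, adjusted p = 0.000285) and 5 genes of the lists in place of 3, and changed no other call among the members.

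Over all probes 511 passed, against 148 without the detection filter, 857 with trended robust variances and 128 to 290 with 1 array left out. Of genes 341 passed, against 87, 591 and 84 to 187 in these settings. With common-median scaling the median gene moved from -0.002 to 0.11, and the split went from 128 higher and 213 lower to 209 and 145, so differences there are read against that shift. From the lists 3 genes passed, against 0 without the filter, 9 with trended robust variances, 7 without background correction, 7 with an offset of 50, 8 in the matched deposited values and 0 to 2 with 1 array left out. The alternatives for the lists, for named genes that are not members and for the count over all genes, and the adjustment over genes (370 genes, 4 list genes and 1 member gene), were added after the data were seen. The causes were not tested.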
